A study of Mus musculus with 10 samples.

Results

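The nuclear-encoded subunits of respiratory complexes II to V were compared between mouse embryos that lacked Tbx1 in the mesoderm and their controls. Members were all genes whose platform symbol begins with Sdha, Sdhb, Sdhc, Sdhd, Uqcr, Cyc1, Cox4, Cox5, Cox6, Cox7, Cox8 or Atp5, with the assembly factors of the Sdhaf type left out, and only probe sets with 1 gene symbol were taken. This gave 47 genes of the 19938 measured, each read from its probe set of highest mean signal: 4 of complex II, 9 of complex III, 17 of complex IV and 17 of complex V. The choice used names only. Cox7c was not read, because the 3 probe sets that carry its symbol also carry that of another gene. Cox7a2l is a member by name, but is known as a factor that joins complexes III and IV in supercomplexes rather than a subunit of the isolated enzyme.

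Complex II, succinate dehydrogenase, passes electrons from the citrate cycle to ubiquinone. Complex III, the cytochrome bc1 complex, passes them on to cytochrome c, and complex IV, cytochrome c oxidase, hands them to oxygen. Complexes III and IV pump protons as they work, and complex V, the ATP synthase, lets the protons back through a rotor to make ATP. Several subunits of complex IV exist as a widely expressed form and as a second form known from heart and skeletal muscle, from lung or from testis. Embryonic mesenchyme meets part of its energy need by glycolysis, and low oxygen is known to favour glycolysis over respiration.

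RNA came from the otic vesicle, the epithelial sac that becomes the inner ear, together with the mesenchyme around it, at embryonic day 12.5, with 1 embryo per Affymetrix Mouse Gene ST 1.0 array. The 5 mutants carried a T-Cre conditional knockout of Tbx1, a T-box transcription factor, and the 5 controls were T-Cre conditional Tbx1 heterozygotes, so both groups carried the recombinase and a loss of at least 1 allele in recombined cells. T-Cre acts in the early mesoderm, and the otic epithelium is therefore not its target. Per the labels, the samples of a group are biological replicates, and tissue of both sides of an embryo was combined. Values are log2 signals, and a difference is mutant minus control. Tbx1 itself had a mean of 7.83 ± 0.36 in mutants against 8.71 ± 0.31 in controls (SD, n = 5 each). The difference of -0.88 missed the threshold, with an adjusted p from limma of 0.451.

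Any pair of arrays correlated at 0.985 to 0.993, and the array medians lay between 6.19 and 6.27. In both groups, Fos was at 8.82 to 9.08 for replicates 1 to 3 but at 5.49 to 5.91 for replicates 4 and 5, so the members are also given within each of these sets. Xist and Y-linked genes showed 1 male among the mutants and 2 among the controls. The highest signal of a Y-linked probe set in a female embryo, 4.36, is used as the background. Of the otic epithelium markers, 13 of 14 were measured and 0 of them lay at background in all arrays, with 9 lower in the mutants and a median log2 difference of -0.027. They ran from Oc90 at -0.49, where mutant 1 was the lowest array at 8.35, to Pax8 at 0.24. All 11 markers of the periotic mesenchyme were measured, and 0 lay at background in all arrays.

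RefSeq promoter windows of GRCm38.p6, from 250 bases before to 50 bases after a start, were held for 35 of the 47 genes, 38 windows in all. They were searched on both strands for the palindromic consensus of NRF1, the letters of ETS sites (CCGGAAGT), of YY1 sites (AAGATGGC) and of the hypoxia response core (ACGTG, which also reads in CACGTG on either strand). NRF1 and the ETS factor GABP are known regulators of respiratory genes. The NRF1 consensus stood in 4 of 38 windows (10.5%, against 0.971% of the 32851 windows of all genes), the ETS letters in 4 (10.5%, against 3.89%), the YY1 letters in 3 (7.89%, against 2.75%) and the hypoxia core in 11 (28.9%, against 19.6%). The windows of the main members had a median of 57.4% G and C, those of the 4 tissue isoforms 50.9% and those of all genes 52.7%. To show what such windows look like, 4 are given 5′ to 3′ with the matched letters in capitals, for subunits described next: Uqcr11 holds ETS letters and a hypoxia core, Cox8a holds ETS letters in 2 places, and Atp5j2 holds YY1 letters after its start. Cox8b, the muscle form of subunit 8, is shown beside Cox8a and holds the hypoxia core in 2 places. The Sdhb and Sdhd windows hold none of the 4 motifs in these letters. A match is a description of the letters only.
Uqcr11, chr10:80406772-80407071, minus strand: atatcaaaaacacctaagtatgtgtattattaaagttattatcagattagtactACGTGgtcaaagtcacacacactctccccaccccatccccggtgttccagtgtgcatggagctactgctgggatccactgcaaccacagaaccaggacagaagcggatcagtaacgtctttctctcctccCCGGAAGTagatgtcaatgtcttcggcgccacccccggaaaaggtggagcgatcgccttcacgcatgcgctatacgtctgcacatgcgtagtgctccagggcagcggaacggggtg
Cox8a, chr19:7217567-7217866, minus strand: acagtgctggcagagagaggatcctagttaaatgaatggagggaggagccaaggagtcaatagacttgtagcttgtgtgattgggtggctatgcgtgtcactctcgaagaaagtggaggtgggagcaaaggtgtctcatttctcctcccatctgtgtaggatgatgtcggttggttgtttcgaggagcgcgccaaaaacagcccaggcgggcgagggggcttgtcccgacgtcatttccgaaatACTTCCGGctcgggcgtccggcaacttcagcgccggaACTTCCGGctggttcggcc
Cox8b, chr7:140900397-140900696, minus strand: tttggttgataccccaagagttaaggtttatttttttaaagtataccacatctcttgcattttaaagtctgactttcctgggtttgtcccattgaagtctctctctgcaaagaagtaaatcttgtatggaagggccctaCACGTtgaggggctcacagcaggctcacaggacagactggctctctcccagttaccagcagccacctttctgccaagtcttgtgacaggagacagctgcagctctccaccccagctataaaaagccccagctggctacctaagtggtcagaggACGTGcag
Atp5j2, chr5:145191492-145191791, minus strand: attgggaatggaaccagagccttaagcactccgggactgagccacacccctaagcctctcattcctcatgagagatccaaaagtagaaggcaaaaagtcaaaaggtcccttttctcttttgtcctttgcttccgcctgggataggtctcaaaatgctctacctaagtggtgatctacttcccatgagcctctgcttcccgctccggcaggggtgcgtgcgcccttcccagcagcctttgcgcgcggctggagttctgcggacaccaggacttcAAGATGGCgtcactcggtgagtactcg

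Most subunit genes had slightly lower signals in the mutants, and 0 of the 47 passed the threshold of 0.05 for the adjusted p of limma. The median log2 difference was -0.06, with 40 genes lower and 7 higher, and the differences ran from -0.35 (Atp5l) to 0.08 (Cox6b2). Over all 19938 genes the median was -0.0021 and 50.9% were lower. The threshold was passed by 2 genes of all, which is 0.0100%, and neither is a member. At an unadjusted p under 0.05 there were 10 members, all lower in the mutants, or 21.3% of the members, where 3.11% of all genes were lower at that level and 4.70% higher. The smallest adjusted p among the members was 0.569, so each of these differences missed the threshold. The count of 10 was 6 without mutant 1, 6 without control 2 and 2 among replicates 1 to 3, and it was 8 without mutant 5.

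**Figure D1:**
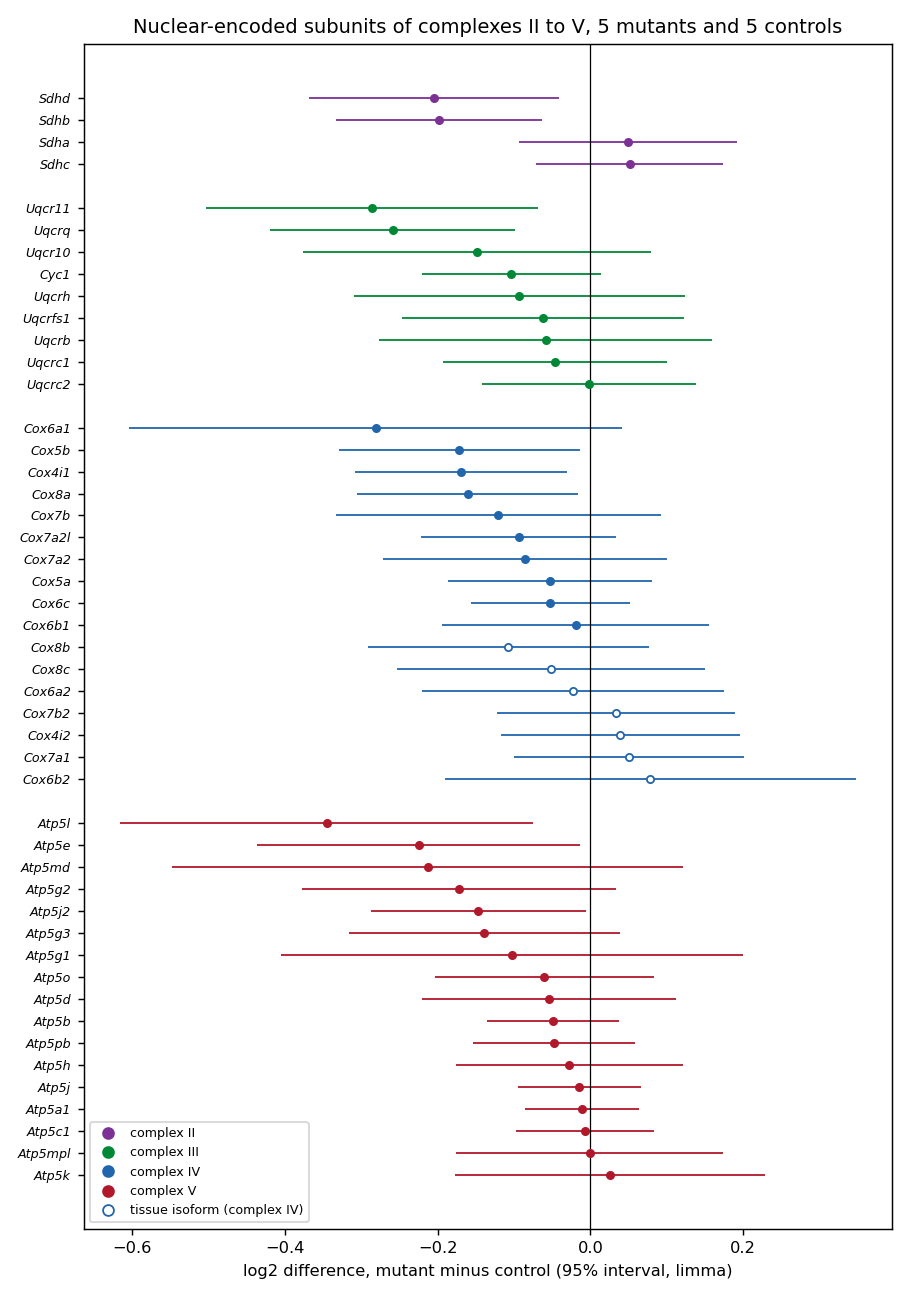
Log2 difference between mutants and controls (horizontal axis, point) with its 95% interval from limma for each of the 47 genes, grouped by complex, with the 7 tissue isoforms of complex IV as open circles. In complexes III and V all points but 1 lie below 0, the differences run from -0.35 to 0.08, and 10 intervals lie wholly below 0. Cox7b2 is at background in all arrays.

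The direction was shared by most embryos but its size was not. For each array the deviation of every member from the control mean was averaged over the 40 members that are not tissue isoforms. This mean deviation was -0.18 in mutant 1, -0.02 in mutant 2, -0.07 in mutant 3, -0.12 in mutant 4 and -0.13 in mutant 5. In the controls it lay between -0.03 and 0.03. Mutant 2 lay within the control range, and the other 4 mutants lay below every control. Mutant 1 held the lowest signal of the 10 arrays for 11 members, mutant 4 for 9, mutant 5 for 7 and mutant 2 for 0, while control 2 held the highest for 13. The pooled within-group SD of a member had a median of 0.12, against 0.13 over all genes, and ran from 0.03 for Atp5j to 0.30 for Atp5md.

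**Figure D2:**
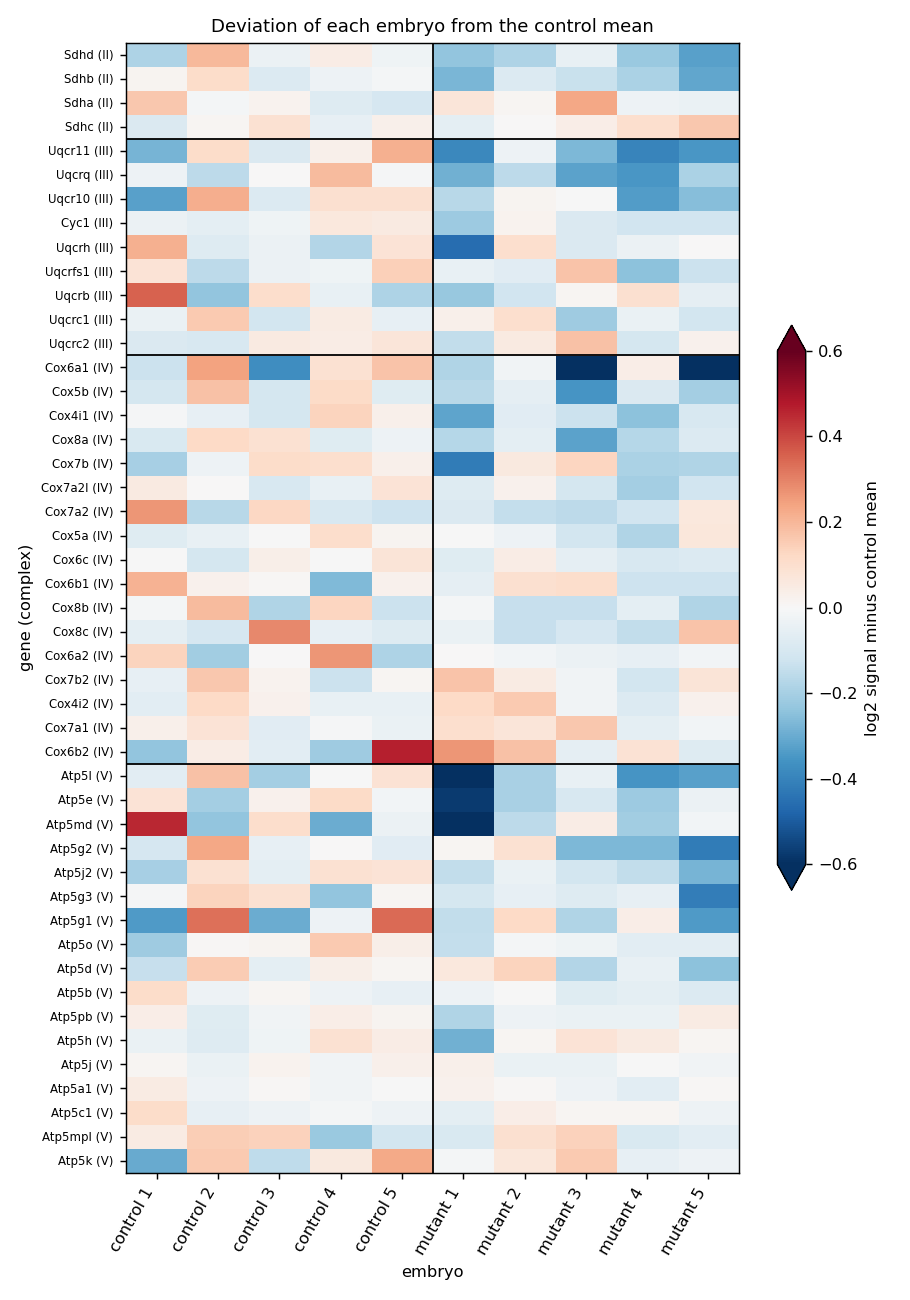
Log2 signal of each member (rows, ordered by complex, with tissue isoforms last in complex IV) minus its control mean, by embryo (columns), on a colour scale that ends at -0.6 and 0.6. Most of the 47 members lie below the control mean in mutant 1 (36), mutant 3 (34), mutant 4 (39) and mutant 5 (36). The column of mutant 2 is mixed (23), and Atp5g1 and Atp5md vary at least as widely among the controls as among the mutants.

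Genes across the whole signal range of the main members leaned the other way, without matching of levels within that range. The 40 members without tissue isoforms had mean signals between 7.95 and 12.58, and 7028 genes of the array fell in that range. Of these, 41.3% were lower in the mutants, with a median log2 difference of 0.02. Of the 40 members, 37 were lower (92.5%), with a median of -0.09. Of the 7 tissue isoforms, 1 lay at background in all arrays, and the other 6 had 3 lower and 3 higher and a median of 0.0086. These shares describe the lists, and no test between them was made.

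Complex II was divided between its subunits. Sdhb and Sdhd had lower signals, whereas Sdha and Sdhc had slightly higher ones, and 0 of the 4 passed. Sdhb, the iron-sulfur subunit that carries electrons from the flavin towards ubiquinone, read 9.01, 9.20, 9.15, 9.09 and 8.97 in mutants 1 to 5 and 9.30, 9.39, 9.20, 9.25 and 9.27 in controls 1 to 5. The 5 mutants lay below all 5 controls, although mutant 2 and control 3 both round to 9.20. Sdhb was the single member whose groups did not overlap, where 0.552% of all genes did not overlap and were lower. The difference of -0.20 ± 0.06 (SE) corresponds to 87.2% of the control signal (95% interval 79.4 to 95.7%), with an adjusted p from limma of 0.569.

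Sdhd, the small membrane anchor, read 9.41, 9.46, 9.60, 9.42 and 9.32 in mutants 1 to 5 and 9.46, 9.84, 9.61, 9.69 and 9.62 in controls 1 to 5. Control 1 lay among the mutants, and the other controls lay above every mutant. The log2 difference of Sdhd was -0.20 ± 0.08 (SE, limma adjusted p 0.575). Sdha, the flavoprotein that oxidises succinate, read 10.76, 10.70, 10.92, 10.66 and 10.65 in mutants 1 to 5 against 10.85, 10.68, 10.71, 10.61 and 10.59 in controls 1 to 5, which overlap throughout, with a difference of 0.05 (interval -0.09 to 0.19). For Sdhc, the large anchor, the mutants read 10.26, 10.32, 10.36, 10.42 and 10.48 and the controls 10.23, 10.33, 10.41, 10.27 and 10.35, a difference of 0.05 (interval -0.07 to 0.17). For Sdhc the difference was -0.0089 among replicates 1 to 3 and 0.14 among replicates 4 and 5, so its sign is not settled. Sdhb and Sdhd were lower in both sets, with differences of -0.18 and -0.15 in the first and -0.23 and -0.29 in the second.

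All 9 genes of complex III had lower mean signals in the mutants, and 0 passed. Within the sets, 6 were lower among replicates 1 to 3 and 7 among replicates 4 and 5, with only 4 lower in both. The median log2 difference of the complex was -0.09. Uqcrq, an accessory subunit, read 8.18, 8.31, 8.15, 8.12 and 8.28 in mutants 1 to 5 and 8.44, 8.31, 8.47, 8.66 and 8.46 in controls 1 to 5. Control 2 was as low as the highest mutant, and the other controls lay above all mutants. The difference of -0.26 ± 0.07 (SE) is 83.6% of the control signal (interval 74.8 to 93.3%), with an adjusted p from limma of 0.569. Its unadjusted p of 0.0039 was the smallest of the members.

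Uqcr11, the smallest subunit of the complex, read 7.70, 8.06, 7.82, 7.69 and 7.74 in mutants 1 to 5 against 7.81, 8.20, 8.00, 8.12 and 8.30 in controls 1 to 5. Mutant 2 stood above control 1 and control 3, and every other mutant except mutant 3 was below the whole control group. The difference was -0.29 ± 0.10 (SE, limma adjusted p 0.572), with -0.15 among replicates 1 to 3 and -0.50 among replicates 4 and 5. Cyc1, the cytochrome c1 that donates electrons to cytochrome c, read 10.15, 10.39, 10.28, 10.25 and 10.25 in mutants 1 to 5 against 10.33, 10.31, 10.34, 10.43 and 10.42 in controls 1 to 5. Mutant 2 alone lay inside the control range, and the difference was -0.10 (interval -0.22 to 0.01). Of the remaining 6 genes, the core proteins Uqcrc1 (-0.05) and Uqcrc2 (-0.0021) were closest to 0 with Uqcrb (-0.06) and the Rieske protein Uqcrfs1 (-0.06), and Uqcrh (-0.09) and Uqcr10 (-0.15) were lower. The 5 accessory subunits had a median of -0.15 and the core pair -0.02. Only 2 of the accessory subunits were lower in both sets of replicates, with 4 lower among replicates 1 to 3 and 3 among replicates 4 and 5. Of the core pair, 1 was lower in both sets.

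In complex IV, all 10 genes other than the tissue isoforms had lower mean signals, with a median log2 difference of -0.11, and 0 passed. For Cox7b this depends on the probe set: the one with neighbours on its own chromosome had a difference of 0.04. The mean deviation of these 10 genes was -0.15, -0.02, -0.16, -0.14 and -0.14 in mutants 1 to 5, against -0.03 to 0.02 in the controls. Cox4i1, the main form of the largest nuclear-encoded subunit, read 10.05, 10.30, 10.24, 10.12 and 10.27 in mutants 1 to 5 and 10.36, 10.32, 10.26, 10.50 and 10.40 in controls 1 to 5. The groups overlap only through control 3. The difference of Cox4i1 was -0.17 ± 0.06 (SE), or 88.9% of the control signal (interval 80.8 to 97.9%), with an adjusted p from limma of 0.575.

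Cox8a, the main form of subunit 8, read 9.50, 9.61, 9.35, 9.50 and 9.59 in mutants 1 to 5 against 9.58, 9.79, 9.76, 9.60 and 9.64 in controls 1 to 5, a difference of -0.16 ± 0.07 (SE). Mutants 2 and 5 reached the range of the controls. Cox5b, the zinc-binding subunit, read 10.91, 11.02, 10.72, 10.99 and 10.87 in mutants 1 to 5 against 10.97, 11.25, 10.97, 11.19 and 11.00 in controls 1 to 5, a difference of -0.17 ± 0.07 (SE). The limma adjusted p was 0.589 for Cox8a and 0.599 for Cox5b. The widest difference of the complex was that of Cox6a1 at -0.28, but its embryos spread over 0.32 (SD) in the mutants and 0.25 in the controls, and the interval of -0.60 to 0.04 includes 0. Cox7b, Cox7a2l, Cox7a2, Cox5a, Cox6c and Cox6b1 had differences from -0.12 to -0.02.

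**Figure D3:**
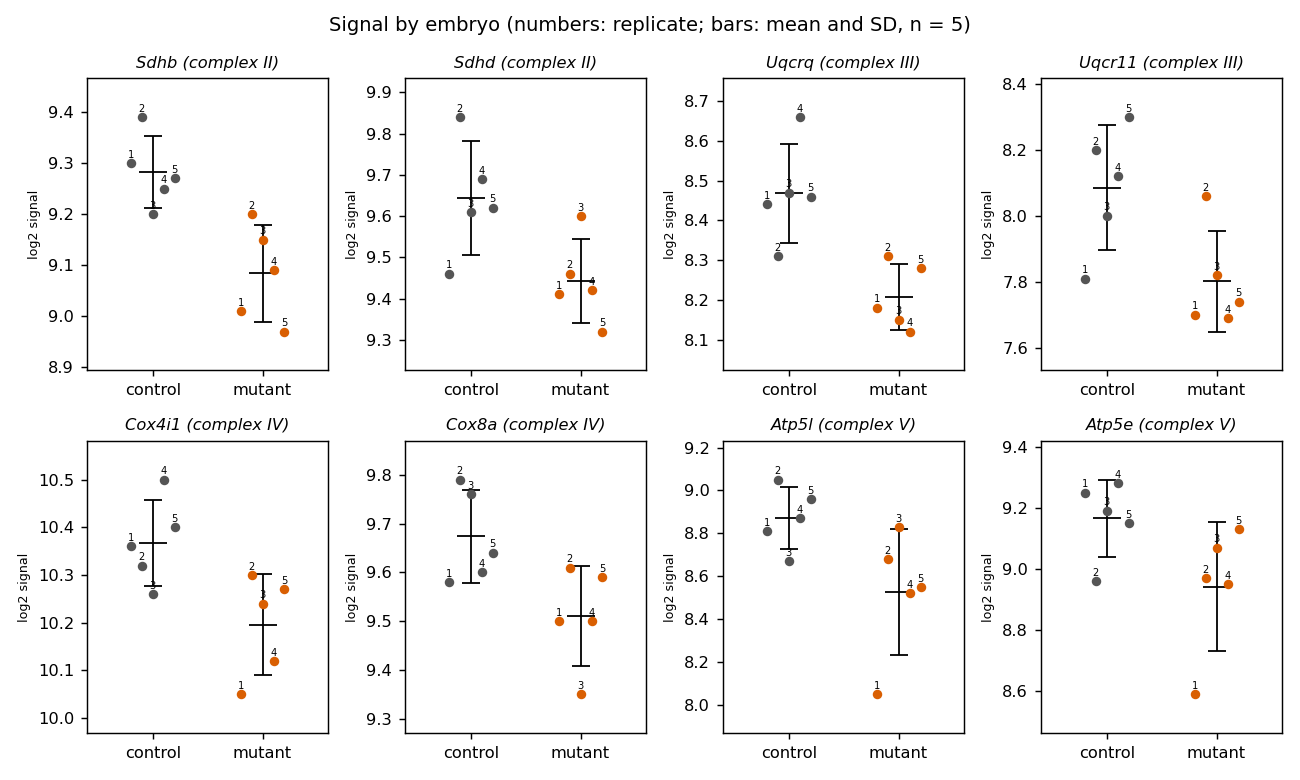
Log2 signal of 8 members by embryo (points, numbered by replicate) in controls and mutants, with mean and SD (bars, n = 5); the axes do not start at 0. Sdhb is the member without overlap, and mutant 1 is the lowest point for Cox4i1, Atp5l and Atp5e.

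The tissue isoforms of complex IV were spread on both sides of 0, with 3 lower and 3 higher in the mutants among the 6 above background and 0 passing. A signal above the background does not show that a gene is expressed in this tissue. The testis marker Prm2 was above it too, with means of 6.15 in the mutants and 6.29 in the controls. How far the signals of the 6 isoforms reflect their own RNA was not tested. Cox4i2, the isoform of subunit 4 known from lung and from low oxygen, read 6.90, 6.94, 6.76, 6.70 and 6.81 in mutants 1 to 5 and 6.72, 6.90, 6.81, 6.74 and 6.74 in controls 1 to 5. The groups overlap fully, and the difference was 0.04 (interval -0.12 to 0.20). The hypoxia and glycolysis genes, by contrast, were higher in 16 of 17 cases with a median of 0.28, and their summed linear signal ran from 20444 to 23514 in the controls and from 24484 to 29140 in the mutants, without overlap, although their mean log2 signals overlapped. Ldha, the lactate dehydrogenase of glycolysis, was at 0.33 ± 0.05 (SE) and Pgk1, phosphoglycerate kinase, at 0.36 ± 0.06. Both had an adjusted p from limma of 0.252, and 0 of the 17 passed. The part of these genes in the differences of the subunits was not tested.

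Among the heart and muscle forms, Cox6a2 read 7.17, 7.15, 7.13, 7.12 and 7.15 in mutants 1 to 5 against 7.30, 6.96, 7.17, 7.43 and 6.98 in controls 1 to 5, a difference of -0.02 whose sign turned without control 1 and without control 4. Cox7a1 read 5.76, 5.73, 5.82, 5.60 and 5.64 in mutants 1 to 5 against 5.69, 5.74, 5.59, 5.65 and 5.62 in controls 1 to 5, a difference of 0.05 (interval -0.10 to 0.20). For Cox8b the mutants read 5.77, 5.64, 5.64, 5.72 and 5.60 and the controls 5.77, 5.97, 5.60, 5.91 and 5.65, a difference of -0.11 (interval -0.29 to 0.08). All 3 overlap between the groups. The 20 skeletal muscle markers were lower in 19 cases with a median of -0.23, 0 passed, and their summed signal ran from 15243 to 24169 in the controls and from 13471 to 23112 in the mutants, with 0 markers at background in all arrays. In such tissue, fewer cells of a type and less RNA per cell cannot be told apart.

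Of the testis forms, Cox7b2 lay at or under the background in all 10 arrays (3.66 to 3.96). Its difference is therefore not read as a change, although it is plotted and counted among the 7 members with higher means. The medians over all 7 tissue isoforms include it. Cox6b2 read 7.60, 7.51, 7.28, 7.42 and 7.26 in mutants 1 to 5 against 7.10, 7.38, 7.27, 7.12 and 7.80 in controls 1 to 5, and Cox8c read 6.42, 6.32, 6.36, 6.31 and 6.63 against 6.40, 6.36, 6.75, 6.41 and 6.38. Both overlap between the groups, with differences of 0.08 (interval -0.19 to 0.35) and -0.05 (interval -0.25 to 0.15), and both changed sign in some subset of the arrays. Of 10 germ cell and testis markers, 4 lay at background in all arrays, and none of the 10 had a mean signal over all arrays of both groups above 6.22. The signal of a probe set depends on its probes, so these levels do not rank the isoforms.

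**Figure D4:**
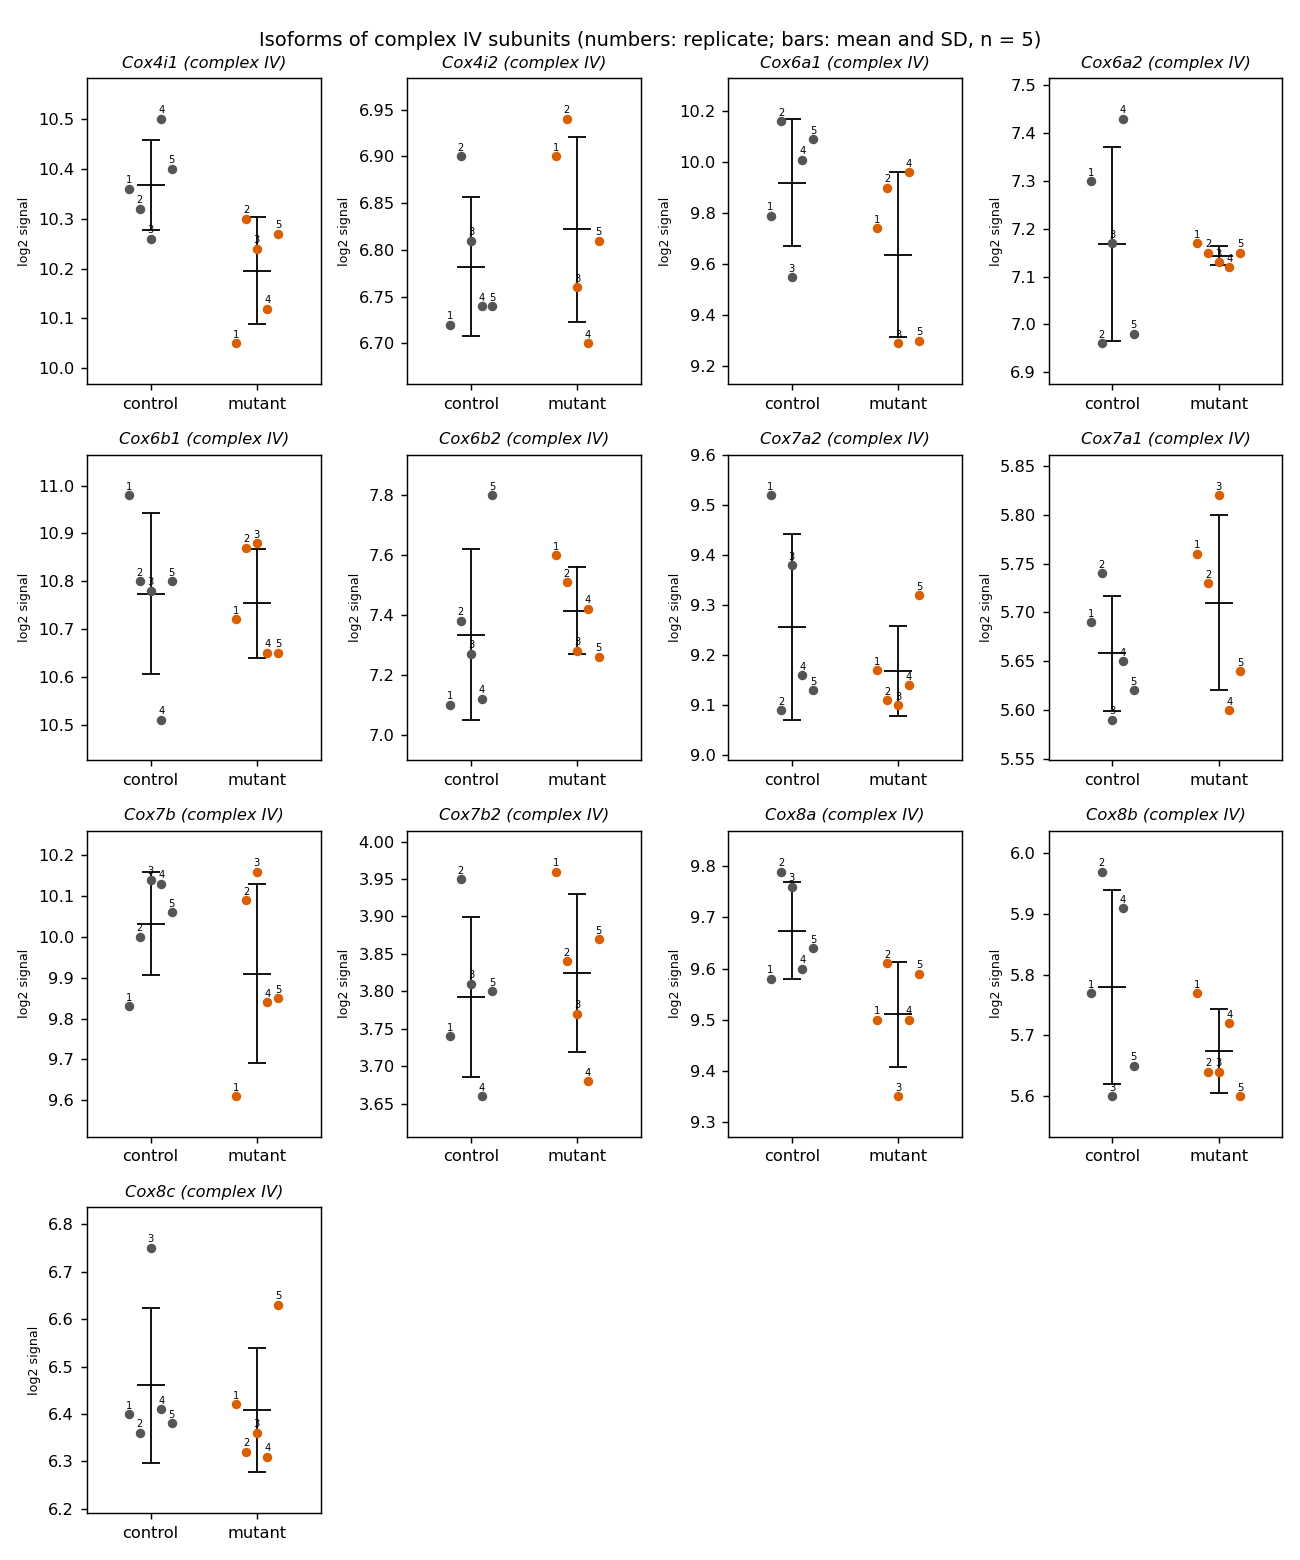
Log2 signal by embryo (points, numbered by replicate; bars are mean and SD, n = 5) for the isoforms of subunits 4, 6A, 6B, 7A, 7B and 8 of complex IV; each panel has its own axis, which does not start at 0. The main forms Cox4i1 and Cox8a have differences of -0.17 and -0.16, and in Cox4i2, Cox6a2, Cox6b2, Cox7a1, Cox8b and Cox8c the groups overlap.

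Complex V had 16 of 17 genes lower, with a median log2 difference of -0.05, and 0 passed. Among replicates 1 to 3, 13 were lower and among replicates 4 and 5, 14, with 10 lower in both sets. Atp5a1 and Atp5b, the alpha and beta subunits that form the head, differed by -0.01 (interval -0.09 to 0.06) and -0.05 (-0.14 to 0.04), and Atp5c1, the central shaft, by -0.0069 (-0.10 to 0.08).

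Atp5l, subunit g of the membrane part, read 8.05, 8.68, 8.83, 8.52 and 8.55 in mutants 1 to 5 and 8.81, 9.05, 8.67, 8.87 and 8.96 in controls 1 to 5. Mutant 1 was far below the rest, and control 3 reached no higher than mutants 2 and 3. The difference of Atp5l was -0.35 ± 0.12 (SE), the largest of all members, at 78.7% of the control signal (interval 65.3 to 94.9%), with an adjusted p from limma of 0.575. Without mutant 1 it was -0.23, the smallest in size of the 10 fits that each leave out an embryo (-0.42 to -0.23). Atp5e, the epsilon subunit of the central stalk, read 8.59, 8.97, 9.07, 8.95 and 9.13 in mutants 1 to 5 against 9.25, 8.96, 9.19, 9.28 and 9.15 in controls 1 to 5, a difference of -0.22 (interval -0.44 to -0.01) that became -0.14 without mutant 1. Atp5j2, subunit f, read 11.17, 11.28, 11.21, 11.17 and 11.04 in mutants 1 to 5 against 11.12, 11.41, 11.26, 11.41 and 11.40 in controls 1 to 5, a difference of -0.15 (interval -0.29 to -0.01). The limma adjusted p was 0.602 for Atp5e and for Atp5j2.

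The rotor ring of complex V is built from subunit c, whose mature protein is encoded by 3 genes that differ in their mitochondrial targeting peptides. Atp5g1 read 9.11, 9.38, 9.08, 9.30 and 8.92 in mutants 1 to 5 against 8.92, 9.59, 8.96, 9.23 and 9.60 in controls 1 to 5. For Atp5g2 the mutants read 11.24, 11.32, 10.96, 10.96 and 10.81 and the controls 11.13, 11.46, 11.18, 11.23 and 11.16. Atp5g3 read 11.26, 11.32, 11.29, 11.32 and 10.95 in mutants 1 to 5 against 11.36, 11.50, 11.46, 11.13 and 11.38 in controls 1 to 5. All 3 genes overlap between the groups, and mutant 5 was the lowest array for Atp5g2 and Atp5g3. For Atp5g1, mutant 5 and control 1 both round to 8.92, and no mutant lay below control 1. The differences were -0.10 (interval -0.41 to 0.20), -0.17 (-0.38 to 0.03) and -0.14 (-0.32 to 0.04). Leaving out 1 embryo moved Atp5g1 to between -0.19 (without control 1) and -0.018 (without control 5), with -0.021 without control 2 and -0.045 without mutant 5. Without mutant 5, Atp5g2 stood at -0.11 and Atp5g3 at -0.070. The rest of the complex ran from -0.21 for Atp5md, with a standard error of 0.15, to 0.03 for Atp5k.

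The annotation gives several probe sets to 12 of the 47 genes, 67 probe sets in all. For 7 members the one used, that of highest mean, has neighbours in probe set number that belong mostly to genes of a chromosome other than the member's own: Atp5g2, Atp5l, Atp5md, Atp5pb, Cox6c, Cox7a2l and Cox7b. Of the 20 nearest probe sets of the Atp5l reading, for example, 20 belong to genes of chromosome 11, while Atp5l lies on chromosome 9. Such a probe set may also hold sequence of a near-identical copy, so the reading of these genes is uncertain. The 6 probe sets of Atp5l had differences from -0.37 to -0.32. For Cox7b the probe set whose neighbours lie on its own X chromosome had a difference of 0.04 against -0.12, and for Atp5pb the corresponding values were -0.12 and -0.05. With such probe sets for all 7, 39 of the 47 members were lower and the median over the 40 members without tissue isoforms was -0.08.

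The other parts of the respiratory machinery differed in their lean. Complex I subunits, taken by symbol and so with Ndufa4 and Ndufa4l2, were lower in 28 of 36 cases with a median log2 difference of -0.08, close to the -0.09 of the 40 main members here. The 77 mitochondrial ribosomal proteins had 49 lower and a median of -0.02. None of the listed genes in either set passed, with a smallest limma adjusted p of 0.569 in each. At an unadjusted p from limma under 0.05, 7 of the complex I subunits (19.4%) were lower and 2 higher. Of the ribosomal proteins, 4 (5.19%) were lower at that level and 1 higher. Over all genes, 3.11% were lower and 4.70% higher. Respiratory assembly factors were lower in 15 of 33 cases with a median of 0.02, citrate cycle and pyruvate entry genes in 8 of 23 with a median of 0.04, and outer membrane and import genes in 4 of 13 with a median of 0.03. The 24 electron carriers and partners had a median of -0.03 with 16 lower, and the 23 regulators of mitochondrial biogenesis a median of -0.0079 with 12 lower. Of 13 mitochondrially encoded subunits listed, 0 were matched by symbol to a probe set with 1 gene symbol, so they were not analysed here.

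**Figure D5:**
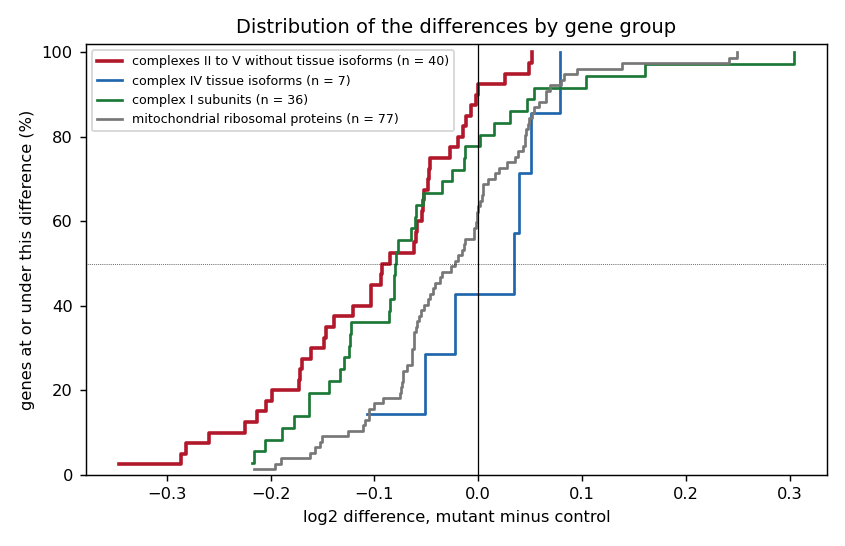
Cumulative share of genes (vertical axis, percent) at or under a log2 difference between mutants and controls (horizontal axis) for the 40 members without tissue isoforms, the 7 tissue isoforms, 36 complex I subunits and 77 mitochondrial ribosomal proteins. The curves of the main members and of complex I cross 50% at about -0.09 and -0.08, that of the ribosomal proteins at -0.02 and that of the 7 tissue isoforms at 0.03, the value of Cox7b2, which is at background; the median of the other 6 is 0.0086.

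The genes of smallest p in each of these lists missed the threshold of limma. Pdk1, the kinase that holds back pyruvate entry into the citrate cycle, read 8.66, 8.65, 8.71, 8.84 and 8.65 in mutants 1 to 5 against 8.55, 8.30, 8.45, 8.31 and 8.47 in controls 1 to 5, a difference of 0.28 ± 0.07 (SE, limma adjusted p 0.569) and no overlap, where 1.27% of all genes did not overlap and were higher. Pdk2, a second such kinase, had -0.18. Ndufa4l2, a relative of Ndufa4 known from low oxygen, had 0.30 ± 0.10 (SE), and Coq10b, a ubiquinone-binding protein, 0.19. The assembly factors Sdhaf4, of complex II, and Uqcc1, of complex III, had 0.20 and 0.15. Slc25a5, an ADP and ATP carrier, had 0.13 and Timm23, a channel of protein import, -0.11. Of the regulators, Ppard had -0.18 and Gabpb1 0.10. Cycs, the cytochrome c that links complexes III and IV, had -0.10 ± 0.08 (SE), Atpif1, the inhibitor of complex V, -0.04 ± 0.05 and Ppargc1a, a coactivator of mitochondrial genes, -0.09 ± 0.08.

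Most marker lists of other cell types leaned to one side as well, but the endothelial list did not. The 15 cartilage markers were all lower, with a median log2 difference of -0.40 and a summed signal of 7636 to 10699 in the controls and 5718 to 9524 in the mutants. The 15 neuronal markers were all higher, with a median of 0.32 and a summed signal of 7295 to 13838 in the controls and 9640 to 20259 in the mutants. Red blood cell markers were lower in 7 of 9 cases (median -0.15, sums of 15051 to 25697 and 13847 to 20573), endothelial markers in 5 of 10 (median 0.05) and macrophage markers in 9 of 10 (median -0.07). In each of these 5 lists 0 markers lay at background in all arrays, and 0 passed. The 11 markers of the periotic mesenchyme were lower in 9 cases with a median of -0.086, where the 40 main members had -0.089, and their summed signal ran from 8197 to 9887 in the controls and from 6857 to 10040 in the mutants. The part of cell makeup in the differences of the respiratory genes was not tested.

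Among replicates 1 to 3, 34 of the 47 members were lower and the median log2 difference was -0.04. Among replicates 4 and 5, 36 were lower and the median was -0.12. Of the members, 26 were lower in both sets. By complex the medians in the first set were -0.08 for complex II, -0.06 for III, -0.04 for IV and -0.04 for V, and in the second -0.09, -0.17, -0.12 and -0.12. The direction of the medians thus held in each set, with a smaller size among replicates 1 to 3 for complexes III, IV and V.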

How the data were processed

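The authors deposited 1 table of log2 signals with 35557 probe sets for 10 arrays, summarised by RMA; the submitters' processing notes name Affymetrix Expression Console 1.1 for this. RMA subtracts background, gives all arrays 1 distribution and combines the probes of a set. That the scale is log2 follows from the range of the values. The labelled RNA was made from 300 ng of total RNA. Precision is limited by the 10 arrays.

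The platform annotation gave 1 gene symbol to 21789 probe sets, several to 1621 and none to 12147 unlisted ones. Gene ids matched 21698 of them to RefSeq genes of GRCm38.p6, used for names and chromosomes. All 21789 were fitted with limma 3.58.1 in R 4.3.3 (lmFit, eBayes with trend, two-sided) and adjusted by Benjamini-Hochberg; each of 19938 genes was then read from its probe set of highest mean. The fit was tested on simulated data. p-values treat the embryos as separate samples.

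Genes given array by array are all complex II subunits, the 3 of smallest p in complexes III, IV and V, the tissue isoforms above background and the c-ring genes; pathway lists give their 2 of smallest p. Members and lists were chosen with earlier results of these data known, and the promoter motifs after the values were seen.

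Deviations of same-numbered mutants and controls correlated at 0.11 to 0.24, and others at -0.38 to 0.38. Of the 5 mutants, 3 correlated best with the control of their own number. Same-numbered arrays may be paired, but these values do not settle it, and the labels do not say what they share. The p-values and intervals given are from the fit without the replicate number, and the fit with it as a block is an alternative. Alternatives were other moderation, normalization, filters and probe sets, the replicate number as a block, sex, array weights and subsets of arrays. Reading members from probe sets with neighbours on their own chromosome was chosen after seeing the data.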

Additional observations from a re-analysis of the deposited data

Results flagged for a closer look

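Of 60 groups of 5 values compared by Dixon's test, 4 had a single array well outside the rest; chance alone marks about 3. These were Cox8c in control 3 (log2 signal 6.746), Atp5g3 in mutant 5 (10.95), the mean deviation of complex II in control 2 (0.07478) and that of complex IV without tissue isoforms in mutant 2 (-0.01511), which lay apart from the other 4 mutants at the level of the controls.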

How the results depend on the processing

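In all 23 alternatives 0 members passed the adjusted threshold, and between 34 and 41 of the 47 were lower. With the replicate number as a block, 0 passed, 40 were lower and 12 had an unadjusted p under 0.05, and it changed no call. In only the arrays numbered 4 and 5 the median log2 differences moved to -0.12 for all members, -0.17 for complex III, -0.12 for complex IV, -0.12 for complex V, -0.14 for members without tissue isoforms and -0.015 for tissue isoforms; the cause was not tested. Over the fits that leave out 1 embryo, the medians ran from -0.08 to -0.06 for all members, from -0.11 to -0.05 for complex II, from -0.14 to -0.06 for complex III, from -0.088 to -0.043 for complex IV, from -0.09 to -0.05 for complex V, from -0.11 to -0.07 without tissue isoforms and from 0.0013 to 0.07 for tissue isoforms. Of these, complex III stood at -0.057 and complex V at -0.089 without control 1, complex IV at -0.088 without mutant 5, and the tissue isoforms at 0.0013 without mutant 1 and 0.070 without mutant 4. Without the isoform at background their median was 0.0086. Among the genes given array by array, signs turned for Sdhc (-0.0089 in arrays 1 to 3, -0.0047 without mutants 4 and 5). They also turned for Cox6a2 (0.0083 in arrays 1 to 3, and -0.075 to 0.043 leaving out 1 embryo) and Atp5g1 (0.033 in arrays 1 to 3). In arrays 4 and 5 they turned for Cox6b2 (-0.12), Cox7a1 (-0.015) and Cox8c (0.071). Cox8c ran from -0.11 to 0.020 leaving out 1 embryo. Other members were not followed singly through every setting, but some changed sign between arrays 1 to 3 and arrays 4 and 5. Examples are Uqcrb (-0.19 and 0.13) and Atp5k (0.17 and -0.18). The median over all genes stayed between -0.011 and 0.012 in these settings. The count at an unadjusted p under 0.05 was 6 without mutant 1 or control 2, 2 in arrays 1 to 3 and 9 in arrays 4 and 5; with fewer arrays each error is larger.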
